A study of Mus musculus with 18 samples.

Results

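The 9 genes described here encode the cyclins that carry a cell through division: Ccnd1, Ccnd2 and Ccnd3 (D type), Ccne1 and Ccne2 (E type), Ccna2 (A type), Ccnb1 and Ccnb2 (B type) and Ccnf (cyclin F). They were chosen by gene symbol out of 17180 genes listed in the count tables, and all 9 were found. The tables come from RNA-seq of liver from C57BL/6 mice taken 0.5, 2, 4, 24, 48, 72, 120 or 168 h after removal of 2/3 of the liver (partial hepatectomy, PH), and from mice with a sham operation. Each of the 9 groups had 2 libraries, each made from the pooled RNA of 3 mice, so that 18 libraries stand for 54 mice. The sham group is labelled as a control with no collection time, and neither sex nor age was used here. Because mice were pooled, the spread between the 2 libraries of a group is that between pools and hides the spread between animals.

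Cyclins are the regulatory subunits of the cyclin-dependent kinases (CDKs), and each type rises in its own phase of the cell cycle. D cyclins pair with Cdk4 and Cdk6 and link growth signals to phosphorylation of the retinoblastoma protein. E cyclins drive the entry into DNA synthesis with Cdk2, cyclin A2 acts through DNA synthesis and into mitosis, and B cyclins with Cdk1 start mitosis. Cyclin F differs from the others in that it activates no CDK: it is the substrate-binding part of an SCF ubiquitin ligase. Hepatocytes of the adult liver rarely divide, and partial hepatectomy is the classical way to make them enter the cycle nearly in step.

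The libraries held about 7780000 to 9160000 reads each. In 16 tables every gene with a read was listed. The table of sham pool 2 ended at genes with 52 reads and that of 0.5 h pool 1 at 157 reads, so that an unlisted gene is unknown there up to 6.52 and 19.0 CPM (counts per 1000000 reads). All 9 cyclins were tested in the 16 complete libraries among 12199 genes, with 1 library each of sham and 0.5 h. Both groups were assumed to vary like the others, and 0.5 h against sham is 1 pool against 1 pool in this fit. Ccnd1, Ccnd3 and Ccnf were abundant enough in sham to be listed in both short tables and were also tested in all 18 libraries, among 4906 genes. Levels are CPM scaled by TMM factors, changes are log2 fold changes with their standard error (SE), and p-values come from the quasi-likelihood test of edgeR and were adjusted by Benjamini-Hochberg over all genes of a fit. The labelled tissue fitted its markers: 9 of 10 hepatocyte markers were matched, none was at 0, and their summed level was 74000 to 86100 CPM at 24 h, 115000 to 117000 CPM at 48 h, 143000 to 162000 CPM at 72 h and 121000 CPM in sham pool 1. Summed lymphocyte markers stayed between 3.09 and 14.0 CPM in these libraries. Summed macrophage and Kupffer cell markers were 515 to 630 CPM at 48 h, against 452 CPM in sham pool 1, and endothelial markers were 270 to 285 CPM, against 306 CPM. Other lists stood apart at other times. Summed cholangiocyte markers were 97.4 to 158 CPM at 4 h and 38.1 to 105 CPM at 72 h, against 39.1 CPM in sham pool 1. Neutrophil and monocyte markers were 62.8 to 125 CPM at 4 h, against 16.9 CPM. Stellate cell and fibroblast markers were 324 to 586 CPM at 72 h, against 257 CPM. Macrophage and Kupffer cell markers were 517 to 1070 CPM at 24 h, against 452 CPM. They were 830 to 940 CPM at 120 h and 993 to 1180 CPM at 168 h. The part of these cells in the cyclin levels was not tested.

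The cyclins passed the threshold at different times, and whether these times differ was not tested. In the 16 complete libraries Ccnd1 was called higher than in sham from 4 h to 72 h, Ccne1 at 24 and 48 h, and Ccna2, Ccnb1 and Ccnb2 at 48 and 72 h. Ccnf moved both ways: it was lower at 2 and 4 h and higher at 48 h. Ccnd2, Ccnd3 and Ccne2 were called at no time. Changes that missed the threshold stood earlier: Ccne1, with 10 reads in sham pool 1, was at 1.79 ± 0.63 at 2 h and 1.10 ± 0.67 at 4 h (log2, SE; edgeR adjusted p = 0.184 and 0.303), against 0.56 and 1.09 for Ccnd1, and Ccna2 at 1.57 ± 0.60 at 24 h (adjusted p = 0.183). In bulk tissue, fewer cells of a type and less RNA per cell cannot be told apart, nor can many cells with a little of an mRNA be told from few with much.

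**Figure D1:**
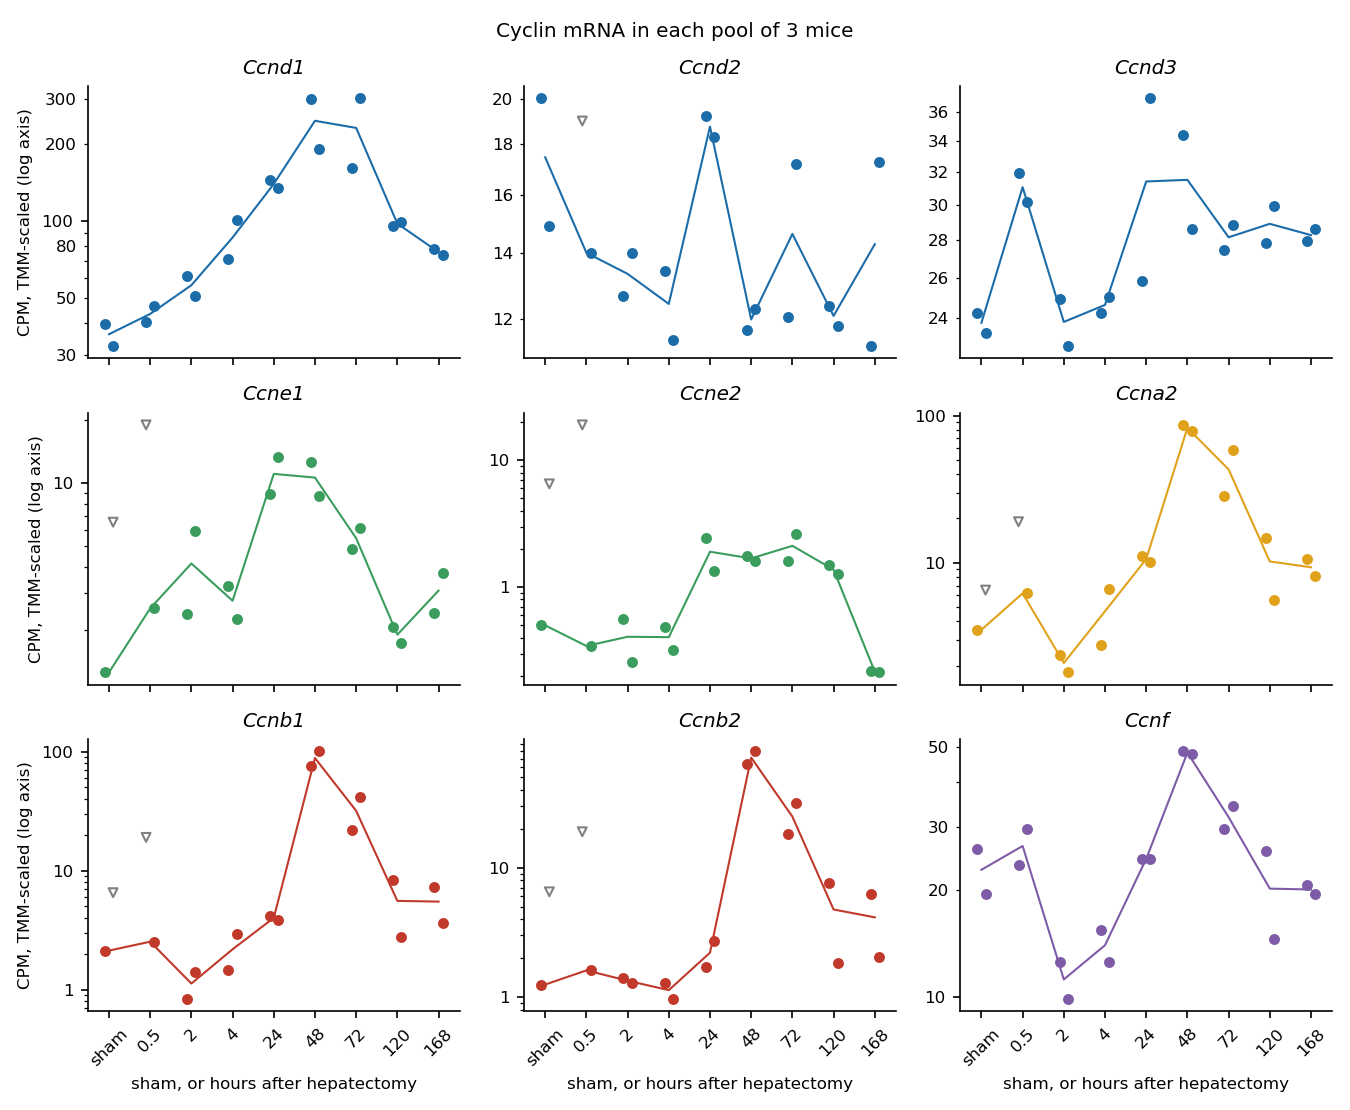
Level of each cyclin mRNA in CPM (TMM-scaled, log axis, a different range in each panel) in sham and at 8 times after hepatectomy; points are pools of 3 mice, lines join the group means of the listed values, and open triangles mark the upper bound where a gene was not listed in a short table. Ccna2, Ccnb1 and Ccnb2 stand highest at 48 h in both pools, while Ccnd2 and Ccnd3 keep within a narrow range.

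Against sham, 0 of the 9 cyclins were called at 0.5 h, where 0.0492% of the 12199 genes were called. At 2 h 1 was called (2.65% of genes) and at 4 h 2 were (15.5%). The count was 2 at 24 h (2.93%), 6 at 48 h (14.9%) and 4 at 72 h (3.82%). At 120 h and 168 h 0 were called, where 0.107% and 0.082% of genes were. At an unadjusted p under 0.05 the counts were 0 at 0.5 h, 4 at 120 h and 2 at 168 h, and DESeq2 called 0, 1 and 0. The median log2 change of the 9 was 2.61 at 48 h and 2.08 at 72 h, against 0.01 and 0.00 over all genes tested. Over the whole course 7 of the 9 differed between groups, the exceptions being Ccnd2 and Ccnd3, where 42.8% of genes did.

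**Figure D2:**
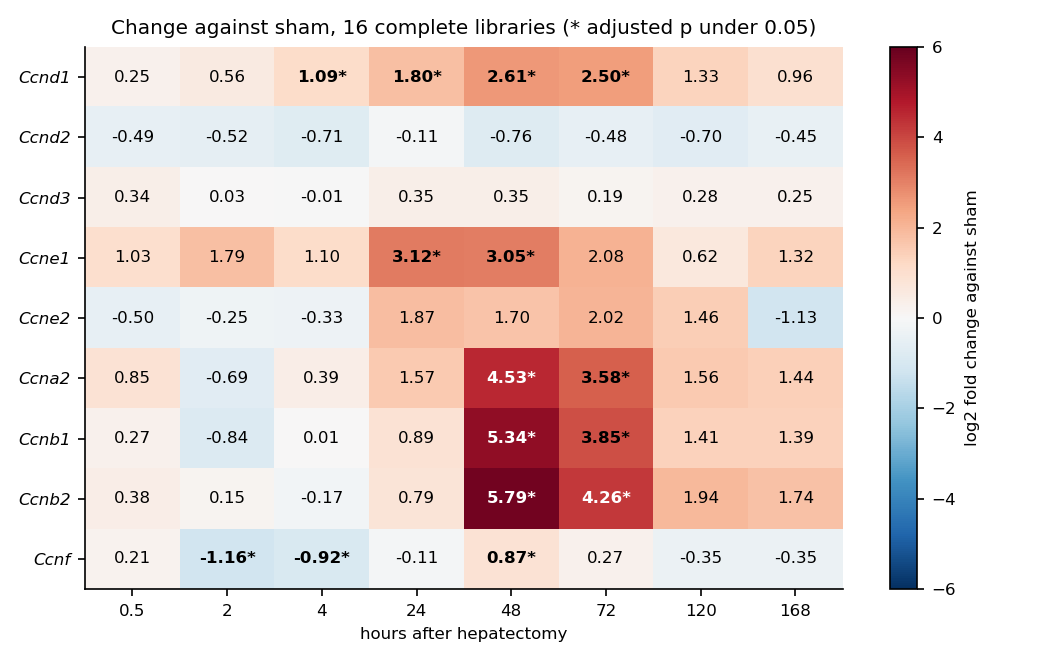
Log2 fold change of each cyclin against sham at each time (columns, hours after hepatectomy) in the 16 complete libraries, with bold and an asterisk for an adjusted p under 0.05. Calls stand from 4 h for Ccnd1, from 24 h for Ccne1 and from 48 h for Ccna2, Ccnb1 and Ccnb2, while Ccne1 was at 1.79 at 2 h without a call.

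Ccnd1 (gene 12443, chr7:144929931-144939831 on the minus strand of GRCm38.p6) encodes cyclin D1, the D cyclin most tied to hepatocyte growth signals. Its level was 39.8 and 32.6 CPM in the sham pools, 40.4 and 46.5 CPM at 0.5 h, 61.4 and 51.1 CPM at 2 h, 71.4 and 101.5 CPM at 4 h, 145 and 135 CPM at 24 h, 302 and 192 CPM at 48 h, 161 and 303 CPM at 72 h, 96.3 and 99.7 CPM at 120 h, and 77.8 and 73.8 CPM at 168 h. Every pool from 0.5 h on was above both sham pools, and the pools at 48 and 72 h were far apart from each other but above all pools of the other times. In the 16 libraries Ccnd1 was higher than in sham by 1.09 ± 0.33 at 4 h (log2, SE; edgeR adjusted p = 0.0421) and by 1.80 ± 0.34 at 24 h (adjusted p = 0.0173). The change reached 2.61 ± 0.36 at 48 h (adjusted p = 0.000913) and 2.50 ± 0.35 at 72 h (adjusted p = 0.00429). Library totals in place of TMM factors gave 0.72 at 4 h (edgeR adjusted p = 0.190), and leaving out 4 h pool 2 gave 0.83 (adjusted p = 0.168). The call at 24 h was lost without 24 h pool 2 (1.81, adjusted p = 0.0516), while those of 48 and 72 h passed with any library but sham pool 1 left out, without which no test against sham was possible in this fit. The steps from 4 to 24 h and from 24 to 48 h, 0.71 ± 0.25 and 0.81 ± 0.25, missed the threshold (edgeR adjusted p = 0.0614 and 0.0702).

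With both sham pools in the fit of 18 libraries, Ccnd1 was called at 6 times. It was higher by 1.26 ± 0.28 at 4 h (edgeR adjusted p = 0.00341; 35.7% of the 4906 genes called) and by 2.77 ± 0.29 at 48 h (adjusted p = 5.16e-05; 36.8%). It was still higher at 120 h, by 1.44 ± 0.28 (adjusted p = 0.0320; 0.775%), and at 168 h, by 1.07 ± 0.28 (adjusted p = 0.0433; 5.75%). The calls at 24 and 72 h were made where 17.3% and 12.6% of the genes were called. The calls from 4 to 72 h passed with any of the 18 libraries left out. That at 120 h passed in 13 of these 18 fits and was lost without either sham pool or either 120 h pool (changes of 1.30 to 1.59, edgeR adjusted p = 0.0732 to 0.269), while the p without 168 h pool 1 lay at the threshold of 0.05 and did not pass. That at 168 h passed in 11 and was lost without either sham pool, either 0.5 h pool, 120 h pool 1 or either 168 h pool (0.93 to 1.22, adjusted p = 0.0511 to 0.257), and library totals ended both (adjusted p = 0.0506 and 0.0610). Between 72 and 120 h Ccnd1 fell by 1.18 ± 0.25 on the log2 scale in the 16 libraries (edgeR adjusted p = 0.0433), a call that passed in 5 of the 16 fits with 1 library left out.

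Ccnd2 (gene 12444, chr6:127125162-127152188, minus strand) encodes cyclin D2. It had 14.9 and 20.0 CPM in the sham pools, 14.0 CPM in the listed 0.5 h pool, and between 11.3 and 19.2 CPM in all 14 later pools. Its highest group mean, 18.7 ± 0.656 CPM at 24 h (SD, n = 2), was next to sham at 17.5 ± 3.6 CPM (SD, n = 2). The largest change against sham was at 48 h, -0.76 ± 0.26, and did not pass (edgeR adjusted p = 0.0646). It passed with only these groups in the fit (-0.75, adjusted p = 0.0280) or without either 168 h pool (adjusted p = 0.0463 and 0.0471), and library totals gave a call at 4 h, of -1.09 (adjusted p = 0.0137), where TMM factors gave -0.71 (adjusted p = 0.0929).

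Ccnd3 (gene 12445, chr17:47505051-47599689, plus strand) encodes cyclin D3, the third D cyclin. It was the steadiest of the 9, with 22.7 to 37.0 CPM over all 18 libraries and a ratio of 1.32 between its highest and lowest group mean. The 18-library fit gave 0.41 ± 0.16 at 48 h (edgeR adjusted p = 0.0554) and 0.40 ± 0.16 at 24 h (adjusted p = 0.0926). Neither passed, and the 24 h pools, 25.8 and 37.0 CPM, were further apart than the sham pools, 24.3 and 23.3 CPM.

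Per length, the D cyclins changed places. In RPKM, which divides the CPM by the gene length, Ccnd1 was 0.920 and 0.785 times Ccnd3 in the sham pools and 4.93 and 3.78 times Ccnd3 at 48 h. At 168 h the ratio was 1.56 and 1.45, above both sham pools. Ccnd1 therefore ranked below Ccnd3 in sham and in both 0.5 h pools, and above it in every pool from 2 h on.

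Ccne1 (gene 12447, chr7:38097984-38107490, minus strand) encodes cyclin E1, the Cdk2 partner of the entry into DNA synthesis. It had 1.25 CPM in sham pool 1 and 2.52 CPM in 0.5 h pool 2, 2.37 and 5.91 CPM at 2 h, 3.24 and 2.26 CPM at 4 h, 8.86 and 13.3 CPM at 24 h, 12.6 and 8.69 CPM at 48 h, 4.84 and 6.08 CPM at 72 h, 2.06 and 1.72 CPM at 120 h, and 2.41 and 3.73 CPM at 168 h. The 4 pools of 24 and 48 h were above all other listed pools and above the 6.52 CPM that the unlisted sham pool could have had, but not above the 19.0 CPM that 0.5 h pool 1 could have had. Against sham pool 1, Ccne1 was higher by 3.12 ± 0.60 at 24 h (edgeR adjusted p = 0.0181) and by 3.05 ± 0.60 at 48 h (adjusted p = 0.00629). Without 24 h pool 2 the change at 24 h was 2.76 and missed the threshold (edgeR adjusted p = 0.0601). Between 4 and 24 h it rose by 2.02 ± 0.42 (edgeR adjusted p = 0.00439), a call that passed with any library left out. Between 24 and 48 h the change was -0.07 ± 0.36 (adjusted p = 0.930), so that the levels of these times did not differ beyond their spread.

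Ccne2 (gene 12448, chr4:11190433-11204779, plus strand) encodes the second E cyclin and was the rarest of the 9, with 2 to 25 reads per library. It had 0.500 CPM in sham pool 1, 0.485 and 0.323 CPM at 4 h, 2.46 and 1.35 CPM at 24 h, 1.77 and 1.60 CPM at 48 h, 1.62 and 2.62 CPM at 72 h, 1.49 and 1.26 CPM at 120 h, and 0.219 and 0.213 CPM at 168 h. All 8 pools from 24 to 120 h were above all listed pools of the other times. Ccne2 rose by 2.20 ± 0.60 between 4 and 24 h (edgeR adjusted p = 0.0178), but the larger values against sham, up to 2.02 ± 0.69 at 72 h (adjusted p = 0.128), did not pass. The step was not called by DESeq2 (2.23, adjusted p = 0.0810), nor by edgeR without either 4 h pool or without 24 h pool 1 (1.67 to 2.53, adjusted p = 0.0658 to 0.119). All of its levels were under the bounds for the unlisted sham and 0.5 h pools, so that 1 sham library is all that it was compared with.

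Ccna2 (gene 12428, chr3:36564865-36573038, minus strand) encodes cyclin A2. It had 3.50 CPM in sham pool 1, 6.20 CPM in 0.5 h pool 2, 2.37 and 1.80 CPM at 2 h, 2.75 and 6.61 CPM at 4 h, 11.1 and 10.1 CPM at 24 h, 86.5 and 78.7 CPM at 48 h, 28.2 and 58.0 CPM at 72 h, 14.8 and 5.62 CPM at 120 h, and 10.5 and 8.10 CPM at 168 h. The 48 h pools stood above all others, the 72 h pools came next, and those of 24, 120 and 168 h overlapped.

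Ccnb1 (gene 268697, chr13:100778739-100786486, minus strand) encodes cyclin B1, the main mitotic partner of Cdk1. It had 2.13 CPM in sham pool 1, 2.52 CPM in 0.5 h pool 2, 0.835 and 1.41 CPM at 2 h, 1.46 and 2.90 CPM at 4 h, 4.16 and 3.84 CPM at 24 h, 76.1 and 100.2 CPM at 48 h, 22.1 and 41.4 CPM at 72 h, 8.37 and 2.75 CPM at 120 h, and 7.34 and 3.62 CPM at 168 h. The pools of 48 h did not overlap those of any other time.

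Ccnb2 (gene 12442, chr9:70407689-70421554, minus strand) encodes cyclin B2, found mostly at the Golgi. It had 1.25 CPM in sham pool 1, between 0.968 and 2.70 CPM in the 7 listed pools from 0.5 to 24 h, 63.0 and 79.5 CPM at 48 h, 18.2 and 31.6 CPM at 72 h, 7.68 and 1.84 CPM at 120 h, and 6.25 and 2.03 CPM at 168 h. It stood highest at 48 h, as Ccnb1 did. In 0.5 h pool 1 it was unlisted, at up to 19.0 CPM.

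At 48 h these 3 had the largest changes of the 9 against sham: 5.79 ± 0.81 for Ccnb2 (log2, SE; edgeR adjusted p = 0.00108), 5.34 ± 0.67 for Ccnb1 (adjusted p = 0.000705) and 4.53 ± 0.61 for Ccna2 (adjusted p = 0.000887). The sham side is 1 library with 10, 17 and 28 reads. Sham pool 2, where they were unlisted, held at most 6.52 CPM of each, and all 6 values at 48 h were at least 63.0 CPM. At 72 h the changes were 4.26 ± 0.81, 3.85 ± 0.66 and 3.58 ± 0.60 (edgeR adjusted p = 0.0119, 0.00820 and 0.00754). Without 72 h pool 2, the higher of the 2 pools, they were 3.82, 3.34 and 2.98 and did not pass (edgeR adjusted p = 0.0752, 0.0556 and 0.0540).

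The steps in time need no sham library. Between 24 and 48 h, 4 of the 9 rose where 4.2% of genes did: Ccnb2 by 5.0 ± 0.54 (edgeR adjusted p = 0.000374), Ccnb1 by 4.45 ± 0.45 (adjusted p = 0.000261), Ccna2 by 2.96 ± 0.40 (adjusted p = 0.00108) and Ccnf by 0.98 ± 0.21 (adjusted p = 0.0154). The call of Ccnf was lost without 24 h pool 1 or either 48 h pool (0.99 each, edgeR adjusted p = 0.0874 to 0.0960). Between 4 and 24 h, Ccne1, Ccne2 and Ccnf rose where 11.7% of genes did, Ccnf by 0.81 with all libraries and by 0.66 to 0.77 in 3 fits that lost its call, without 4 h pool 2 or either 24 h pool (edgeR adjusted p = 0.0662 to 0.147). Between 48 and 72 h, 0 were called by edgeR (0.656% of genes), 5 had an unadjusted p under 0.05 and DESeq2 called 1. From 72 to 120 h, Ccnd1, Ccna2, Ccnb1 and Ccnb2 fell where 0.721% of genes did, Ccnb1 by 2.45 ± 0.43 and Ccna2 by 2.01 ± 0.39 (edgeR adjusted p = 0.0309 and 0.0349). That count was 0 without 72 h pool 2, without 120 h pool 2 or without either 48 h pool. From 0.5 to 2 h, 1 was called (3.21% of genes), from 2 to 4 h 0 (6.7%), and from 120 to 168 h 0, as for every gene tested. DESeq2 also called 0 in these last 2 steps, with 0 and 1 of the 9 at an unadjusted p under 0.05. At 72 h Ccna2, Ccnb1 and Ccnb2 were still higher than at 24 h, by 2.00 ± 0.39, 2.96 ± 0.44 and 3.47 ± 0.54 (edgeR adjusted p = 0.0109, 0.00238 and 0.00298; 3.16% of genes rose). The call of Ccna2 was lost without either 24 h pool or 72 h pool 2 (1.44 to 2.08, edgeR adjusted p = 0.0538 to 0.146).

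The pools of late times differed in these mRNAs. At 120 h pool 1 had 14.8, 8.37 and 7.68 CPM of Ccna2, Ccnb1 and Ccnb2, while pool 2 had 5.62, 2.75 and 1.84 CPM. At 168 h pool 1 was again above pool 2 for all 3, and at 72 h pool 2 was above pool 1. At 48 h Ccna2 and Ccnd1 were higher in pool 1 but Ccnb1 and Ccnb2 in pool 2.

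Ccnf (gene 12449, chr17:24223230-24251409, minus strand) encodes cyclin F, which marks other proteins for destruction late in the cycle. It had 26.0 and 19.4 CPM in the sham pools, 23.5 and 29.5 CPM at 0.5 h, 12.5 and 9.89 CPM at 2 h, 15.4 and 12.6 CPM at 4 h, 24.3 and 24.4 CPM at 24 h, 48.7 and 48.0 CPM at 48 h, 29.6 and 34.2 CPM at 72 h, 25.7 and 14.6 CPM at 120 h, and 20.6 and 19.4 CPM at 168 h. The 4 pools of 2 and 4 h were below both sham pools, and those of 48 h were above all others. In the 18 libraries Ccnf was lower than in sham by a log2 change of -1.02 ± 0.24 at 2 h (edgeR adjusted p = 0.0183; 8.76% of the 4906 genes called) and of -0.70 ± 0.24 at 4 h (adjusted p = 0.0382). It was higher at 48 h, by 1.09 ± 0.22 (adjusted p = 0.00262). The 16 libraries gave -1.16 ± 0.27, -0.92 ± 0.27 and 0.87 ± 0.27 at these times (edgeR adjusted p = 0.0384, 0.0336 and 0.0437). In the 18-library fit the changes at 2 and 4 h did not pass without sham pool 1 (-0.80 and -0.47, edgeR adjusted p = 0.186 and 0.256), that at 2 h without 2 h pool 2 (-0.86, adjusted p = 0.151), nor that at 4 h without either of its pools (-0.84 and -0.55, adjusted p = 0.0719 and 0.209). At 48 h it was above 4 h by 1.79 ± 0.22 in the 16 libraries (edgeR adjusted p = 6.98e-05; 39.1% of genes called) and by 1.79 ± 0.24 in the 18 (adjusted p = 5.87e-05; 51.7%). From 0.5 to 2 h Ccnf fell by 1.24 ± 0.24 in the 18 libraries (edgeR adjusted p = 0.00479; 13.3% of genes called). The 16 libraries are part of the 18, so that their calls of Ccnf are no separate support. With 1 library left out, those against sham passed in 7 of 15 fits at 2 h, 11 of 15 at 4 h and 9 of 15 at 48 h. That at 48 h in the 18 libraries passed in 18 of 18.

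Summed per length, the make-up of the cyclin mRNA changed at 48 h. The 9 together had 38.5 RPKM in sham pool 1, 80.6 and 85.5 RPKM at 24 h, 260 and 231 RPKM at 48 h, and 107 and 190 RPKM at 72 h. The B cyclins held 4.62% of the sum in sham pool 1 and between 3.37% and 4.84% in the 7 complete pools from 0.5 to 24 h. At 48 h they held 32.8% and 45.3%, and at 72 h 21.1% and 22.6%. The D cyclins held 67.6% in sham pool 1 and 43.5% and 31.7% at 48 h, although their summed level was higher there, 113 and 73.1 RPKM against 26.0 RPKM in sham pool 1 and 22.0 RPKM in sham pool 2. The E cyclins had their highest shares at 24 h, 7.06% and 9.01%, apart from 8.63% in 2 h pool 2.

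**Figure D3:**
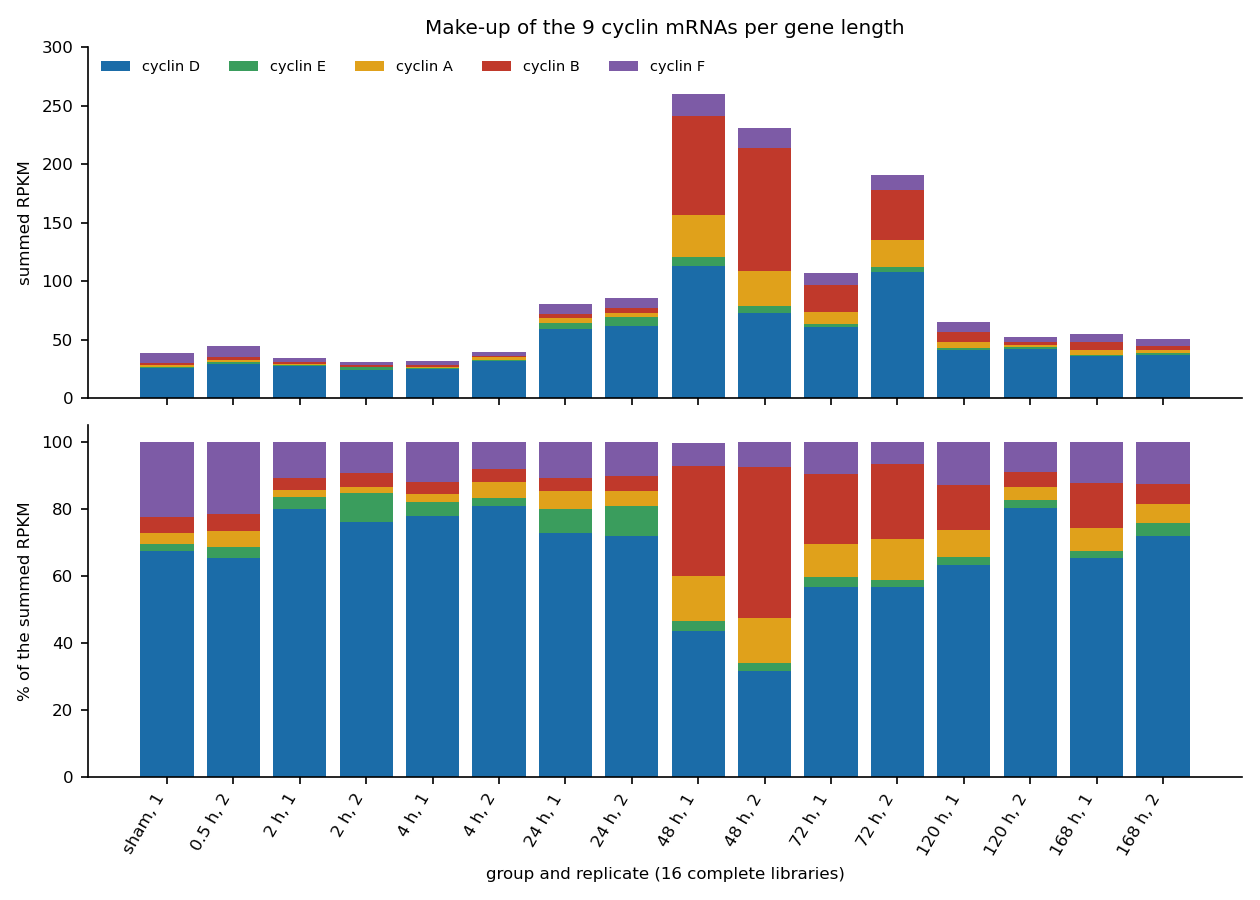
Summed RPKM of the 9 cyclins (top) and the share of each type in that sum (bottom, in percent) for each of the 16 complete libraries, labelled by group and replicate. The B cyclins take 32.8% and 45.3% at 48 h, against 4.62% in sham pool 1.

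At 48 h, the order per length in pool 1 was Ccnd1 with 92.0 and 55.9 RPKM, Ccnb2 with 47.2 and 56.9, Ccnb1 with 38.0 and 47.8, Ccna2 with 35.4 and 30.7, Ccnd3 with 18.7 and 14.8, Ccnf with 18.2 and 17.1, Ccne1 with 7.20 and 4.75, Ccnd2 with 2.34 and 2.35, and Ccne2 with 0.677 and 0.584, the second value of each being that of pool 2. Ccnd1 and Ccnb2 overlapped, as did Ccnb2 and Ccnb1, and Ccnd3 and Ccnf. In sham pool 1 the B and A cyclins were between 0.835 and 1.27 RPKM, and Ccnd3, Ccnd1 and Ccnf led with 11.7, 10.8 and 8.63 RPKM.

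The ratio of Ccnb1 to Ccne1 needs no scaling factor. It was 1.48 in sham pool 1, 0.308 and 0.209 at 2 h, 0.393 and 1.12 at 4 h, 0.410 and 0.252 at 24 h, 5.28 and 10.1 at 48 h and 3.98 and 5.95 at 72 h (RPKM over RPKM). The pools of 48 and 72 h were above all other complete libraries, and low values stood at 2 h as well as at 24 h. The ratio of Ccnb1 to Ccnb2 moved less, and lay between 0.805 and 0.873 in all 4 pools of 48 and 72 h.

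Promoters are given for 4 of the cyclins because Ccnb1, Ccnb2 and Ccnf were called higher between 24 and 48 h. Ccne1 was called between 4 and 24 h and not in the later step. Ccnf was called in both, by 0.81 between 4 and 24 h and by 0.98 between 24 and 48 h. Each sequence runs from 250 bases before the annotated start to 30 bases after it, 5′ to 3′ on the gene's strand, from RefSeq on GRCm38.p6. Promoters were matched for 5 of the 9 cyclins. Capitals mark CCAAT boxes (CCAAT, the element bound by NF-Y), CHR elements (TTTGAA, the cell cycle homology region that recruits the DREAM and MuvB complexes) and E2F cores.
Ccnb1, chr13:100786457-100786736, minus strand: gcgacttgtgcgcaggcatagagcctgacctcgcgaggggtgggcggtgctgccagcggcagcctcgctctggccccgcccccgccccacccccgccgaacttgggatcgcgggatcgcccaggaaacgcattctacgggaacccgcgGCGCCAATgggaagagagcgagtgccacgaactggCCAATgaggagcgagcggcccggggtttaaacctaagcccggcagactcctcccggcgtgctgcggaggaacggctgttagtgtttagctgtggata
Ccnb2, chr9:70421525-70421804, minus strand: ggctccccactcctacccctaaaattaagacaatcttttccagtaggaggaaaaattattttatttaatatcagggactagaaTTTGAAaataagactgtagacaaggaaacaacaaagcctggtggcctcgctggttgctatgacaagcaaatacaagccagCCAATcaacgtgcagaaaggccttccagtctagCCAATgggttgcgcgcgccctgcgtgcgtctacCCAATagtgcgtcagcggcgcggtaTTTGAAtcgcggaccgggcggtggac
Ccnf, chr17:24251380-24251659, minus strand: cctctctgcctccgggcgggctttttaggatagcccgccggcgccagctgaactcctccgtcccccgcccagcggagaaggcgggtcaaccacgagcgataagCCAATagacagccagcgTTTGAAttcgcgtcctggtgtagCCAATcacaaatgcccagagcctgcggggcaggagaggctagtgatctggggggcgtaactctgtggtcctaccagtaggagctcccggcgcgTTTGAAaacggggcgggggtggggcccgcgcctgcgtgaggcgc
Ccne1, chr7:38107461-38107740, minus strand: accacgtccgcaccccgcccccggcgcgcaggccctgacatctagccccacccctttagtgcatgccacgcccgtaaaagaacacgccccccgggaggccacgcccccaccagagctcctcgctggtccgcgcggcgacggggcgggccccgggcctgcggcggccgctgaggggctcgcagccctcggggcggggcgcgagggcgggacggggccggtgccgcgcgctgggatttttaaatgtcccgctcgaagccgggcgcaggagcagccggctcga

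Both strands were searched for CCAAT, for TTTGAA and for 4 E2F cores. The cores were TTCCCGC, the same with GG at its centre (TTGGCGC), with GC there (TTGCCGC), and with CG there (TTCGCGC). Ccnb2 had 3 CCAAT boxes, beginning at -87, -54 and -21, and 2 CHR elements, at -167 and 5. Ccnf had 2 CCAAT boxes, at -147 and -107, and 2 CHR elements, at -130 and -14. Ccnb1 had 2 CCAAT boxes, at -99 and -67, and an E2F core on the other strand from -102 to -96 that overlaps the first of them. Ccne1 held none of these letters in this window. Of 32851 mouse promoters of the same length, 36.1% held a CCAAT box and 11.1% held 2 or more, 17.2% held TTTGAA and 2.11% held it 2 or more times, and 8.90% held an E2F core. These matches are letters in a window: binding was not measured here. No CHR letters other than TTTGAA were searched for, so that the lack of a match in Ccnb1 covers these letters alone. Likewise, no E2F letters other than the 4 cores were searched for. The lack of a match in Ccne1 therefore does not mean that it has no E2F site.

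**Figure D4:**
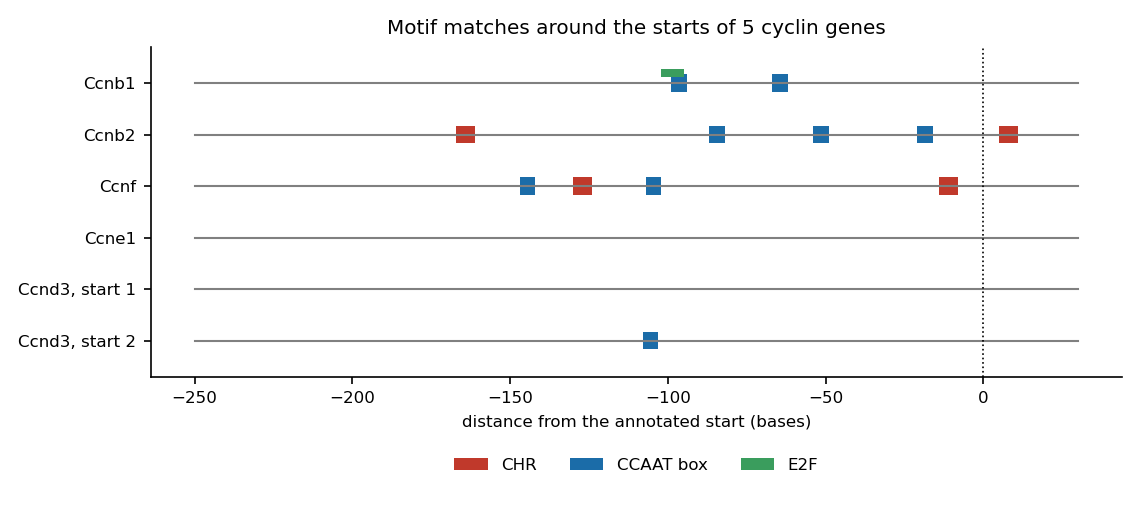
Positions of CCAAT boxes, CHR elements (TTTGAA) and E2F cores relative to the annotated start (0, in bases) in 6 promoters of 5 cyclin genes, Ccnd3 having 2 starts. Ccnb2 and Ccnf hold both CCAAT boxes and CHR elements, and Ccnb1 holds CCAAT boxes and an E2F core. Ccne1 and the first start of Ccnd3 hold none of the letters searched for.

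Genes with the most similar time course were found by the mean absolute difference of centred log2 group means, over 9 groups and 16 libraries, among 11605 candidates. For Ccnb1 these were Knstrn, a kinetochore and spindle protein (0.126), and Cdca3 (0.150), where the median gene was at 1.44. For Ccna2 they were Nusap1, a spindle microtubule protein (0.125), and Cdca8 of the chromosomal passenger complex (0.185). For Ccnb2 they were Ube2c (0.234) and the mitotic kinase gene Plk1 (0.295). Ccne1 was nearest to Rad18 (0.302) and the primase gene Prim1 (0.327), and Ccne2 to Tnnc1 (0.343) and Skp2 (0.345). Ccnd1 was nearest to Morc4 (0.198) and the chromatin protein gene Hmgb2 (0.207), and Ccnf to Metrn (0.115) and D030056L22Rik (0.154). Ccnd2, with little change over time, was nearest to Inpp5f (0.0600). Among the members the closest pairs were Ccnd2 with Ccnd3 (0.223), Ccnb1 with Ccnb2 (0.242) and Ccna2 with Ccnb1 (0.30).

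The partners and regulators of the cyclins were followed in lists. The counts at 48 h stand beside the 14.9% of all genes called then. Of 9 CDK partners and activating kinase genes, 4 were higher than in sham at 48 h and 0 lower: Cdk1, the kinase of the B cyclins, by 4.88 ± 0.54 (edgeR adjusted p = 0.000672), the CDK subunit genes Cks1b by 2.13 ± 0.42 and Cks2 by 1.28 ± 0.37 (adjusted p = 0.00592 and 0.0345), and Cdk2, the kinase of the E cyclins, by 1.29 ± 0.33 (adjusted p = 0.0224). Their median change was 0.88 at 48 h, against 0.01 over all genes. Cdk1 averaged 75.6 CPM at 48 h and 2.50 CPM in sham pool 1. Cdk4, the D cyclin kinase, had 0.29 ± 0.21 at 48 h (edgeR adjusted p = 0.375), when Ccnd1 was higher. Cks2 was lower at 2 h, by a log2 change of -2.06 ± 0.42 (edgeR adjusted p = 0.0192), as Ccnf was.

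CDK inhibitors did not all follow the same times. Cdkn1a, which encodes p21, was higher at 2 h by 3.04 ± 0.37 and at 4 h by 3.27 ± 0.37 (edgeR adjusted p = 0.000848 and 0.000133), then fell by 2.24 ± 0.26 between 4 and 24 h, and was higher than in sham again at 48 h by 2.31 ± 0.35 (adjusted p = 0.00166). It averaged 440 CPM at 4 h, 92.6 CPM at 24 h and 225 CPM at 48 h, against 44.6 CPM in sham pool 1, the library of the test, and 92.2 CPM in sham pool 2. The 24 h mean thus lay next to the higher sham pool, and the means of 4 h and 48 h above both. Of 6 inhibitors tested, 4 were higher at 48 h and 0 lower (median 2.20): Cdkn1a, Cdkn2c by 2.71 ± 0.36, Cdkn2d by 2.10 ± 0.49 and Cdkn3, a phosphatase gene of Cdk proteins, by 6.85 ± 0.95 (edgeR adjusted p = 0.000767, 0.0137 and 0.00103 for the last 3). All 6 were higher at 48 h than at 24 h, where 4.2% of genes were. Cdkn3 had 0.25 CPM in sham pool 1, where 3 reads make 0.375 CPM, and was unlisted in sham pool 2. It averaged 31.0 CPM at 48 h, so that the size of its change against sham is uncertain. Cdkn2a and Cdkn2b did not have the reads to be tested.

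All 6 genes of the phosphorylation switches that turn Cdk1 on and off were higher at 48 h than in sham (median 3.62). Cdc25c and Cdc25b, which encode activating phosphatases, were higher by 6.18 ± 0.87 and 3.48 ± 0.56, Plk1 by 5.85 ± 0.69, and Pkmyt1, which encodes an inhibitory kinase, by 3.76 ± 0.68 (edgeR adjusted p = 0.00108, 0.00224, 0.000705 and 0.00388). Genes with opposite effects on Cdk1 were thus both higher at this time. Cdc25c had 0.125 CPM in sham pool 1, where 3 reads make 0.375 CPM, and averaged 10.3 CPM at 48 h. The size of its change against sham is therefore uncertain.

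Of 17 genes of cyclin destruction 4 were higher at 48 h and 0 lower, with a median of 0.36. These were Cdc20, the activator of the anaphase-promoting complex (APC/C), by 5.94 ± 0.86, its ubiquitin-conjugating enzymes Ube2c by 5.40 ± 0.68 and Ube2s by 2.81 ± 0.27, and its subunit gene Anapc11 by 1.02 ± 0.26 (edgeR adjusted p = 0.00121, 0.000705, 0.000581 and 0.0203). Ube2s was also higher at 4 h, by 1.63 ± 0.26 (edgeR adjusted p = 0.00112), before any B cyclin was called.

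Of 24 genes of cyclin transcription 8 were higher and 2 lower at 48 h, with a median of 0.51. Foxm1, which activates mitotic genes, was higher by 4.50 ± 0.56 and E2f1 by 1.79 ± 0.31, E2f8, a repressor of the E2F family, by 1.41 ± 0.30, and Rbl1, a retinoblastoma relative, by 1.87 ± 0.40 (edgeR adjusted p = 0.000705, 0.00348, 0.00852 and 0.00913). E2f1 was the only one of the 24 called at 24 h, where 2.93% of all genes were called. It was higher by 1.41 ± 0.31 (edgeR adjusted p = 0.0327) and was unlisted in sham pool 2. Ccne1 was first called at that time too, and a link between these genes was not tested. The 2 lower at 48 h were Myc and Rbl2, by log2 changes of -1.25 ± 0.36 and -0.77 ± 0.22 (edgeR adjusted p = 0.0355 and 0.0354). Both were tested against sham pool 1 alone. Myc averaged 6.93 CPM at 48 h, against 16.3 CPM in sham pool 1 and 7.39 CPM in sham pool 2. Its 48 h mean thus lay next to the lower sham pool. Rbl2 averaged 24.0 CPM, against 40.1 and 32.5 CPM in the sham pools.

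Some reads of these genes can belong to a neighbour, since no source used here gives the strand of the counting. In GENCODE vM21, exons of Ccnd1 share 1100 bases with LTO1 on the opposite strand, those of Ccne2 609 bases with Ints8, those of Ccna2 510 bases with Exosc9 and those of Ccnd3 361 bases with Bysl. Exosc9 had 11.7 to 11.8 CPM at 48 h, against 9.27 to 11.1 CPM in sham, while Ccna2 had 78.7 to 86.5 CPM at 48 h. Ints8, with 9.97 to 19.0 CPM at 24 h and 18.5 to 21.1 CPM in sham, had more CPM than Ccne2 in every group, without division by length. Bysl had 34.1 to 36.2 CPM at 48 h, against 19.0 to 23.1 CPM in sham, beside Ccnd3 with 28.6 to 34.4 CPM at 48 h and 23.3 to 24.3 CPM in sham. The part of these neighbours in the counts was not tested. No exon overlap was found for Ccne1, Ccnb1 or Ccnb2.

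The tables also give the share of a gene's length covered by reads. It grew with the reads for most cyclins, and for Ccnb1 it was 8.46% at its lowest and 99.3% at its highest. For Ccnf it also differed at similar reads. The sham and 0.5 h pools had 60.05% to 64.54%, and every pool from 24 h on had 67.15% or more. Per kilobase, sham pool 1 and 0.5 h pool 2 had 67.12 and 82.93 reads. The 24 h pools had 73.57 and 75.83 reads, covering 73.89% and 84.7%, and 120 h pool 2 had 40.98. The part of this difference in the Ccnf changes was not tested. Ccnd3 kept to between 66.8% and 74.0% in all 18 libraries, at 150 to 356 reads. Genes with reads per kilobase within 10% of those of Ccnd3 had medians of 80.7% to 90.6% in the 16 complete libraries, and only 6.33% to 22.4% of them were covered as little as Ccnd3. Ccnd3 has 2 annotated starts, and no source used here says which of its transcripts the length in the tables stands for, so that its RPKM is less certain than its count.

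**Figure D5:**
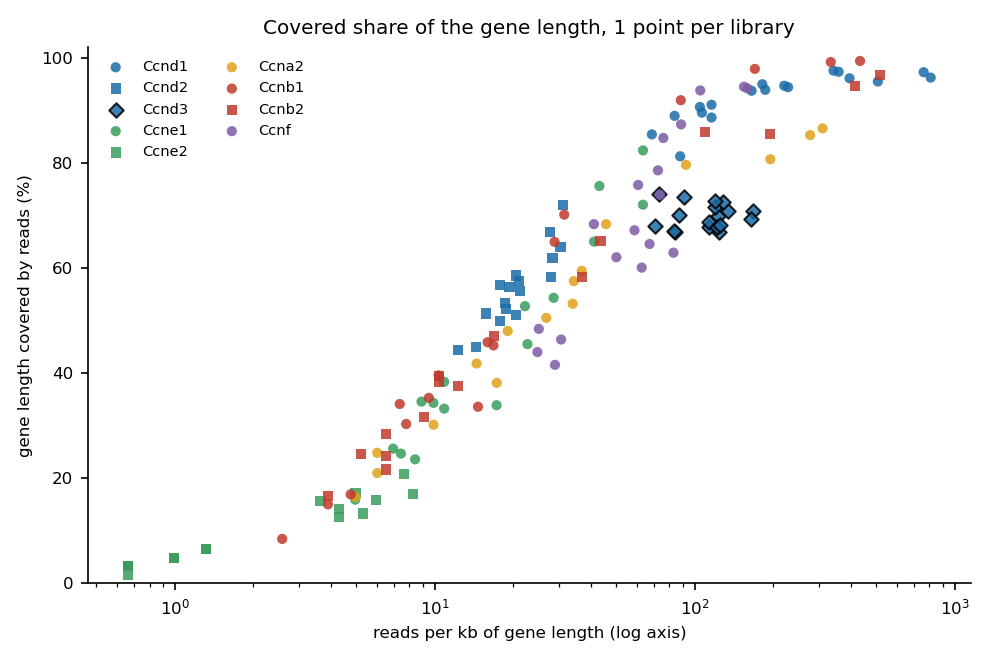
Share of the gene length covered by reads (percent) against reads per kilobase of gene length (log axis), 1 point per cyclin and library. Ccnd3 (outlined diamonds) stays between 66.8% and 74.0% where Ccnd1 at similar reads per kilobase lies at 81.2% or more.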

How the data were processed

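Poly(A) RNA of mouse liver was sequenced in 18 libraries, 2 pools for each of 9 groups, per the labels' protocols. The submitters' processing notes name mm10 as the genome. Aligner, counter and strand: not given in the sources used here. The deposited counts are reads mapped uniquely to a gene, per the file headers. The deposited RPKM values are those counts per kilobase of gene length and 1000000 reads, per the file headers. The deposited coverage is the percent of a gene's length that reads cover, per the file headers. Nothing says that the 2 pools of a group shared no animal handling or library batch, so p-values measure the spread between pools.

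Counts were tested with edgeR 4.0.16 (R 4.3.3) by its quasi-likelihood F test. All groups entered 1 fit with TMM factors, and Benjamini-Hochberg adjustment ran within each comparison (threshold 0.05). The filter on low counts was that of edgeR (minimum count 10, 2 libraries, minimum total 15). The fit of 16 complete libraries had 7 residual degrees of freedom and a biological coefficient of variation of 0.166, that of 18 libraries 9 and 0.139. The SE was derived from the log2 fold change and the F statistic (size of the change over the root of F). On simulated counts for 48 h against sham, the 16-library fit called 24% of genes changed 2-fold and 90% of those changed 4-fold, with 6 false calls of 120; the 18-library fit called 83% and 100%, with 4 of 187. The 2 fits held 12199 and 4906 genes, so that these shares differ in genes as well as in libraries. How often changes of the 6 cyclins tested only in the 16 libraries are missed was not tested. Small changes of these 6 can be missed, and larger ones as well. At 72 h Ccne1 and Ccne2 were 4.24-fold and 4.05-fold higher than in sham pool 1 without a call.

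The members, lists and comparisons were chosen with earlier results of these data known. All members are named; from each list at most 4 called genes per comparison, smallest p first; for each member up to 2 genes most like it (those of Ccnd3 are not reported here). Cdk4, and the calls of Ube2s and Cks2 at early times, were added after their values were seen. Alternatives were DESeq2 1.42.0, RLE factors, library totals, no filter, limma-trend (limma 3.58.1) on log2 CPM with a prior count of 2 and on RPKM with pseudocounts of 1 and 0.1, the 2 groups alone, unlisted genes at 0 or at the lowest listed count, a replicate block and leaving out each library. Replicate numbers were not used to pair the libraries in the main fits.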

Additional observations from a re-analysis of the deposited data

Results flagged for a closer look

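Ccnf differed from sham in opposite directions at 4 h and at 48 h, and the difference between these times was also tested. It rests on the same libraries as those opposite calls and largely follows from them, so that it adds no separate support. At 48 h Ccnf had 48.7 and 48.0 CPM, against 15.4 and 12.6 CPM at 4 h, and 26.0 and 19.4 CPM in the sham pools. The log2 change at 48 h against 4 h was 1.79 ± 0.22 in the 16 complete libraries (SE; edgeR adjusted p = 6.98e-05; 39.1% of genes called) and 1.79 ± 0.24 in all 18 (adjusted p = 5.87e-05; 51.7%). Both pools of 4 h were below both sham pools and both pools of 48 h were above them. The share of the Ccnf length covered by reads was lower in sham than in every pool from 24 h on. Its part in these changes was not tested. With library totals in place of TMM factors, the median gene itself lay 0.35 lower at 4 h than in sham and 0.17 higher at 48 h.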

How the results depend on the processing

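Of 1199 alternative values for 45 calls of single cyclins, 1027 kept their direction and passed the threshold, 172 kept their direction but did not pass, and 0 reversed. Calls of Ccnd1 and Ccnf made in both fits count once in each, and many of the values leave out a library of a group not compared. These values are therefore not separate from each other. The counts of cyclins called changed as follows, with the count as reported in brackets. The 2 h count (1) was 2 with the 2 groups alone and 0 with unlisted genes at 0 or at the lowest listed count. The 4 h count (2) was 1 in both of these, and the 24 h count (2) was 0 with the 2 groups alone and 1 in both. With unlisted genes at 0, sham comparisons gave 3 for 48 h (6) and 1 for 72 h (4). This setting also gave 0 for the steps 0.5 to 2 h (1), 4 to 24 h (3), 24 to 48 h (4) and 72 to 120 h (4), 0 for 72 h over 24 h (3), and 4 over the course (7). Unlisted genes at the lowest listed count gave 1 for 120 h (0), 4 for the step to 2 h, 0 for that to 24 h and 2 for that to 120 h. These 2 settings put an invented value into an otherwise measured group. Without the filter there were 2 for 120 h, 2 for 168 h (0), 2 for the step to 2 h, 5 for that to 24 h, 3 for that to 72 h (0) and 5 for 72 h over 24 h. DESeq2 called 1 for 120 h and 1 for the step to 72 h. The 2 groups alone gave 1 for 168 h, 2 for the step to 2 h, 1 for that to 24 h and 0 for that to 120 h. The step to 24 h had 7 with library totals, 5 with limma on log2 CPM and 7 with limma on RPKM at either pseudocount. The step to 120 h had 1 with limma on log2 CPM and 0 on RPKM with a pseudocount of 0.1. The causes were not tested.

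Leaving out 1 library gave counts against sham of 0 to 1 for 2 h, 0 to 2 for 4 h, 0 to 2 for 24 h, 5 to 6 for 48 h and 1 to 5 for 72 h. The steps had 0 to 1 for 2 h, 1 to 4 for 24 h, 3 to 5 for 48 h and 0 to 4 for 120 h, with 2 to 4 for 72 h over 24 h and 7 to 7 over the course. The lowest for 4 h and for the step to 24 h came without 4 h pool 2, for 24 h without 24 h pool 2 and for 72 h without 72 h pool 2. In the 18 libraries, 9 calls of Ccnd1 and Ccnf against sham became 5 to 11, the 5 without sham pool 1. A pool left alone in its group was assumed to vary like the others. Without sham pool 1 no test against sham was possible in the 16 complete libraries, nor at 0.5 h without 0.5 h pool 2.

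Pools with the same number did not deviate together throughout (r of -0.36 to 0.29 over 21 pairs of groups, median 0.02, 7 of them over 0.1). The main fits therefore did not pair them. These values cannot tell whether some groups shared a batch. With the replicate number as a block, the count was 0 at 2 h and 1 at 4 h, and the other counts kept within 1.5 times.

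Library totals in place of TMM factors moved the median gene by -0.25, -0.35, 0.13, 0.17 and 0.10 against sham for 2 h, 4 h, 24 h, 48 h and 72 h, and by 0.48 for 24 h over 4 h. The change of Ccnd1 at 4 h in the 16 libraries was then 0.72 and did not pass, and on the log2(RPKM + 1) scale it was 0.65. Mean levels on library totals were 0.775 to 1.14 times those given, 51 of 70 moved by less than 1 SD, and all 9 cyclins had their highest mean in the same group. Of the 18 genes most like a cyclin, 2 for each, 14 were also among the nearest by Euclidean distance. Ccne2 had the fewest reads of the 9, 2 to 25 per library.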

Other observations

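Of 13 other cyclins tested, 0 were higher and 2 lower than in sham at 48 h, where 14.9% of all genes were called, with a median log2 change of -0.68. Ccng2, a cyclin linked to growth arrest, was lower at 4 h, 24 h and 48 h, by log2 changes of -0.84 ± 0.26, -1.34 ± 0.26 and -1.09 ± 0.26 (SE; edgeR adjusted p = 0.0457, 0.0181 and 0.0151). Its mean level was 10.2 CPM at 24 h and 12.2 CPM at 48 h, against 25.4 and 19.7 CPM in the sham pools. Ccnl1, a cyclin of RNA splicing, was higher at 2 h by 1.83 ± 0.34 and at 4 h by 2.26 ± 0.35, and lower at 48 h by a log2 change of -1.07 ± 0.33 (edgeR adjusted p = 0.0118, 0.000902 and 0.0462). It averaged 101 CPM at 4 h and 9.97 CPM at 48 h, against 20.5 and 16.3 CPM in the sham pools. Both sets of changes are against the first sham pool. Ccna1, Ccnb3, Ccnjl and Ccno did not have the reads to be tested.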
